A study of Mus musculus with 12 samples.

Results

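The genes described here are 43 mouse genes that act in DNA replication and S phase, taken by gene symbol from a list: 4 origin licensing genes, 6 MCM helicase subunits, 6 helicase activation genes, 6 polymerase and primase subunits, 7 genes of the clamp, its loader and lagging-strand work, 5 nucleotide supply genes, 3 genes of chromatin assembly and histone mRNA, and 6 E2F factors and E cyclins. Of the 43, 42 were among the 14082 gene symbols used, and all 42 were among the 12962 symbols that reached 1 FPKM in 4 or more of the 12 libraries. The missing one is Pcna, the sliding clamp, which the tables list only under a locus joined with Tmem230 whose estimate failed in ApcKO replicate 3. RNA was sequenced from Lgr5-GFP+ cells of the intestinal epithelium, sorted by FACS from C57BL/6 mice, in 4 ApcKO, 4 ApcHET and 4 ApcWT libraries, which the labels do not tie to single animals. ApcKO mice were ApcFlox/Flox, ApcHET mice ApcFlox/+ and ApcWT mice Apc+/+, and every mouse carried Lgr5-CreERT2-ires-eGFP, which makes both the inducible Cre and the GFP used for sorting in cells that express Lgr5. All 3 genotypes, ApcWT included, got 1 tamoxifen injection and then tamoxifen diet for 5 days, and cells were collected at day 15. The labels give no sex, age, batch or date.

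Before a cell copies its DNA, the origin recognition complex, Cdc6 and Cdt1 load the MCM helicase onto origins, and Cdc45, the GINS complex and Mcm10 help switch it on. Polymerase alpha with primase starts each strand, polymerases delta and epsilon extend it on the Pcna clamp, and Fen1 and Lig1 finish the lagging strand. Many of these genes are transcribed under E2F factors as cells pass from G1 into S phase, and the crypt base stem cells marked by Lgr5 are known to divide often.

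The E2F factors bind short DNA words, and stretches before the start are shown for the 4 genes whose calls held under every alternative (E2f2, E2f8, Tk1 and Rfc3) and, chosen after the matches were seen, for Orc1, Mcm5 and Mcm6. Each is the 160 bases before the annotated start, 5′ to 3′ on the gene's strand, from RefSeq promoters on GRCm38.p6. E2f2 is at chr4:136172114-136172273 on the + strand, E2f8 at chr7:48881597-48881756 on the - strand, Tk1 at chr11:117826015-117826174 on the - strand, Rfc3 at chr5:151651209-151651368 on the - strand, Orc1 at chr4:108579294-108579453 on the + strand, Mcm5 at chr8:75109349-75109508 on the + strand and Mcm6 at chr1:128359706-128359865 on the - strand. Capitals mark TTTCCCGC, TTTGGCGC, TTTCGCGC or TTTGCCGC on either strand, and matches that overlap run together.
E2f2: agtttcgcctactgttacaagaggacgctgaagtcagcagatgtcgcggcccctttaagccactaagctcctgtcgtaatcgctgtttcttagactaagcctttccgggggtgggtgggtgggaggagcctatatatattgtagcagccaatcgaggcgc
E2f8: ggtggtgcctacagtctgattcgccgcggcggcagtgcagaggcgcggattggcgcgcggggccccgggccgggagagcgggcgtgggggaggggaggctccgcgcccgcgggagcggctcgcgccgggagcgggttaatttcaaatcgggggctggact
Tk1: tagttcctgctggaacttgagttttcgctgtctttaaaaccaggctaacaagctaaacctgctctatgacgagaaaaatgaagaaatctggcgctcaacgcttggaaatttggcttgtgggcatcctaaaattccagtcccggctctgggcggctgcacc
Rfc3: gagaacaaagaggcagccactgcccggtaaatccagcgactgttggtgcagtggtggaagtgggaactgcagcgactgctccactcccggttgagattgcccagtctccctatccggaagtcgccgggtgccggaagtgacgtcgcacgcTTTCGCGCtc
Orc1: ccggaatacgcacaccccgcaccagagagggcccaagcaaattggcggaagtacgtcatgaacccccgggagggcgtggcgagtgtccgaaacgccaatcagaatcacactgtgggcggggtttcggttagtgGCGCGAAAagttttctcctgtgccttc
Mcm5: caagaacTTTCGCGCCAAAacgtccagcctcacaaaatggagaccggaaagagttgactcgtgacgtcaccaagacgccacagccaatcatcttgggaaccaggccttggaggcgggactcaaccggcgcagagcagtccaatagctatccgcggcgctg
Mcm6: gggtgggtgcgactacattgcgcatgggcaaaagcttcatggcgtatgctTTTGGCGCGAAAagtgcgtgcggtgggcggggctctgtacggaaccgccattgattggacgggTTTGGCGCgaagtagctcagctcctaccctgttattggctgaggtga
The stretches of E2f2, E2f8 and Tk1 hold no match, those of Rfc3 and Orc1 hold 1 each, that of Mcm5 holds 2 that overlap, and that of Mcm6 holds 3, of which 2 overlap. In the whole window, from 250 bases before the start to 50 bases from it on, E2f2 and Rfc3 have 1 more match each. Windows were given for 36 of the 43 members, 35 of them among the 42 used. Of the 35, 14 (40.0%) hold at least 1 match, against 704 of 27025 genes with a window (2.6%). TTTCCCGC is in 7 of the 35 and in 1.24% of all genes, TTTGGCGC in 6 and 0.585%, TTTCGCGC in 6 and 0.374%, and TTTGCCGC in 0 and 0.507%. A match is a run of letters, not a site shown to be bound. The log2 fold changes of ApcKO over ApcWT had a median of -0.24 over the 14 members with a match and of -0.20 over the 21 without one.

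Values are FPKM, the authors' fragments per kilobase of transcript, scaled to the mapped fragments of the library, so levels can be compared between genes, and fold changes are differences of mean log2(FPKM + 1), which understate the change of genes near 0. Per-library values are given for replicates 1 to 4 in that order. Total FPKM ran from 391710 in ApcKO replicate 1 to 518428 in ApcKO replicate 4. The absolute depth is unknown, and the steps between low values did not settle the relative depth of any ApcKO library. Lgr5, which marks these stem cells and drives the reporter, had 65.4, 35.4, 36.3 and 27.0 FPKM in ApcKO, 24.2, 28.3, 31.6 and 21.3 FPKM in ApcHET and 30.0, 23.7, 20.2 and 21.6 FPKM in ApcWT. The stem cell marker Olfm4 had 106, 674, 702 and 81.7 FPKM in ApcKO, 5779, 7078, 7654 and 4693 FPKM in ApcHET and 5667, 5782, 5378 and 5019 FPKM in ApcWT, so it was far lower in all 4 ApcKO libraries and lowest in ApcKO replicates 1 and 4. Ascl2 lay at 12.9 to 25.1 FPKM in ApcKO, 17.1 to 22.3 FPKM in ApcHET and 17.3 to 22.6 FPKM in ApcWT, and Smoc2 at 79.8 to 134 FPKM in ApcKO, 105 to 147 FPKM in ApcHET and 112 to 125 FPKM in ApcWT. Apc itself had 17.3, 12.9, 15.3 and 9.94 FPKM in ApcKO, 9.81, 11.0, 10.8 and 12.5 FPKM in ApcHET and 9.97, 6.91, 10.5 and 8.20 FPKM in ApcWT. The tables give 1 value for the whole gene, which holds exons outside the deleted part, so it does not check the deletion.

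Few of the 42 genes differed between ApcKO and ApcWT in 1 direction across all libraries. E2f2, E2f8, Tk1, Pold1 and Rfc4 fell in ApcKO relative to ApcWT, Rfc3, Orc6 and Orc1 rose, and 34 did not pass limma's test at an adjusted p under 0.05. The 8 called are 19.0% of the 42, where 45.5% of all 12962 features were called (27.9% higher and 17.7% lower). The members' median log2 fold change was -0.17, with 10 above and 32 below 0, and that of all features was 0.12. With size factors by the median of ratios the median of all features was 0.01 and that of the members -0.28. Genotypes did not overlap in 6 of the 42 (14.3%), against 40.4% of all features. The members' 95% intervals were wide, with a median half-width of 0.52 on the log2 scale against 0.38 over all features, so a change smaller than that would mostly not have been called. These intervals share 1 spread per gene among the 3 genotypes, although the members' spread was largest in ApcKO. In a fit of the 2 genotypes alone 4 members were called, against 38.6% of all features. In RNA from sorted pools, fewer cells of a type and less RNA per cell cannot be told apart.

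**Figure D1:**
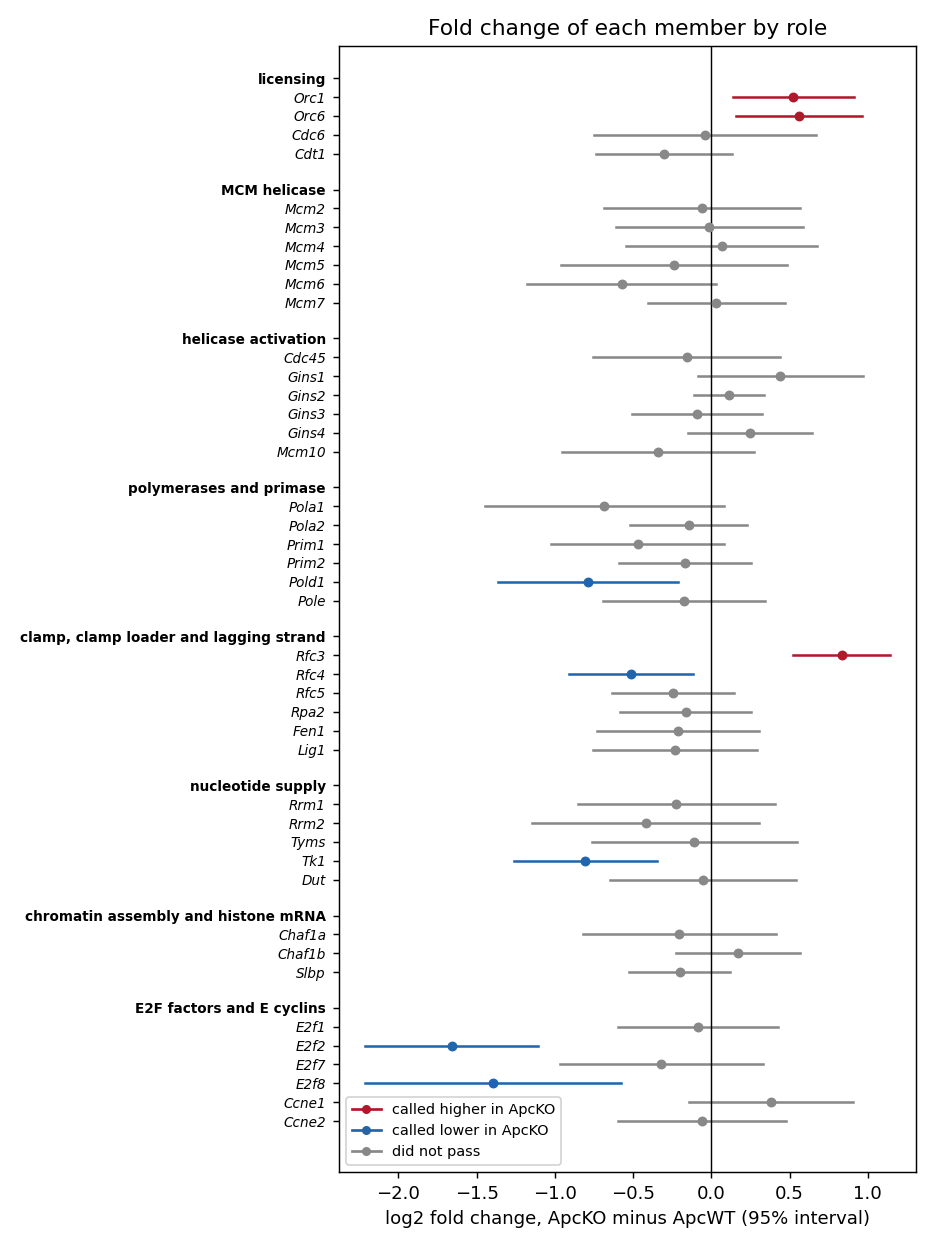
Fold change of each of the 42 members as log2(FPKM + 1), ApcKO minus ApcWT, grouped by role; points are estimates of the limma fit, bars are 95% intervals, and colours mark the calls. The values run from -1.66 for E2f2 to 0.83 for Rfc3, and most intervals cross 0.

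Among the E2F factors and E cyclins, 2 of 6 fell and none rose, where 17.7% of all features were called lower and 27.9% higher. E2f2, an activator of S phase genes, had 2.39, 6.00, 6.39 and 2.46 FPKM in ApcKO, 14.7, 13.0, 10.7 and 15.8 FPKM in ApcHET and 13.9, 13.4, 17.6 and 14.1 FPKM in ApcWT. Every ApcKO library lay below every library of the other genotypes, and within ApcKO replicates 1 and 4 were the low ones. It averaged 4.31 ± 2.18 FPKM in ApcKO against 14.8 ± 1.93 FPKM in ApcWT (SD, n = 4 each), a log2 fold change of -1.66 (SE 0.25, limma adjusted p = 0.000196), the largest of the 42. E2f8, an atypical E2F that represses E2F targets, had 3.52, 14.2, 16.5 and 4.59 FPKM in ApcKO, 26.8, 20.9, 20.3 and 26.0 FPKM in ApcHET and 25.5, 20.9, 27.3 and 18.6 FPKM in ApcWT. Again the genotypes did not overlap, and ApcKO replicates 1 and 4 were far under the other ApcKO libraries. Its log2 fold change was -1.40 (SE 0.38, limma adjusted p = 0.00917). E2f7, its close relative, ran over 1.22 to 5.57 FPKM in ApcKO, 3.78 to 4.66 FPKM in ApcHET and 3.16 to 4.66 FPKM in ApcWT, with ApcKO replicates 2 and 3 above and 1 and 4 below every ApcWT library (log2 fold change -0.32). E2f1, the founding activator, ran over 5.94 to 14.4 FPKM in ApcKO, 9.72 to 12.5 FPKM in ApcHET and 8.55 to 13.4 FPKM in ApcWT (log2 fold change -0.08). Ccne1, whose protein drives Cdk2 at the G1/S boundary, ran over 7.15 to 18.1 FPKM in ApcKO, 6.26 to 11.1 FPKM in ApcHET and 7.86 to 10.5 FPKM in ApcWT (log2 fold change 0.38), and its paralog Ccne2 over 4.80 to 10.4 FPKM in ApcKO, 5.26 to 9.56 FPKM in ApcHET and 5.75 to 8.50 FPKM in ApcWT (log2 fold change -0.06). E2f1, E2f7, Ccne1 and Ccne2 did not pass, and the deposited locus of Ccne2 is 5.84 times as long as the annotated gene. Over the 18 alternatives the log2 fold change of E2f8 ran from -1.71 to -0.77 and that of E2f2 from -1.89 to -1.23, and both were called in each.

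**Figure D2:**
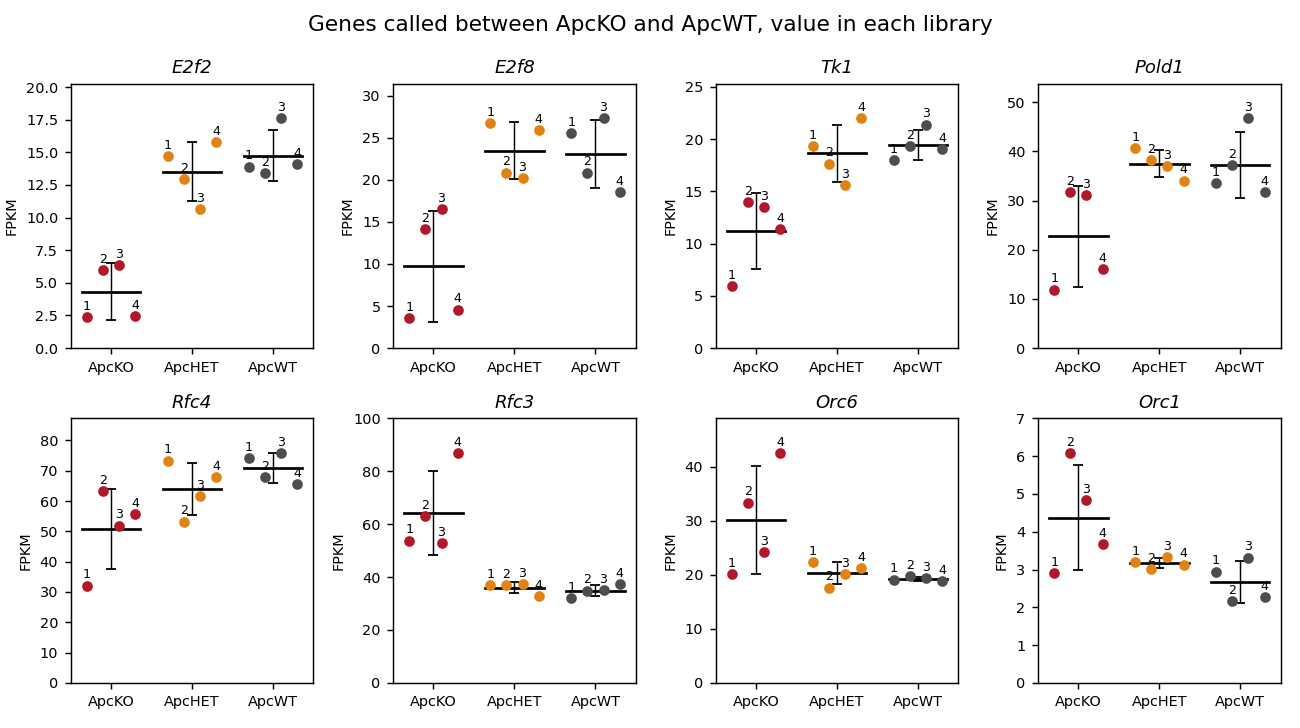
FPKM of the 8 members called between ApcKO and ApcWT, by genotype; each point is 1 library with its replicate number, the horizontal bar is the mean and the vertical bar the SD (n = 4). E2f2, E2f8, Tk1 and Rfc3 show no overlap between ApcKO and either other genotype.

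Of the 4 licensing genes, 2 rose, where 27.9% of all features were called higher. Orc6, a subunit of the origin recognition complex, had 20.2, 33.3, 24.2 and 42.5 FPKM in ApcKO, 22.4, 17.6, 20.1 and 21.3 FPKM in ApcHET and 19.1, 19.8, 19.4 and 18.9 FPKM in ApcWT. All ApcKO libraries were above all ApcWT libraries, with ApcKO replicates 2 and 4 highest, while ApcKO replicate 1 lay within the ApcHET range. Its log2 fold change was 0.56 (SE 0.18, limma adjusted p = 0.0259), and its deposited locus is 5.55 times as long as the annotated gene. Orc1, an ATPase subunit of the same complex whose level is known to vary through the cell cycle, had 2.90, 6.09, 4.83 and 3.67 FPKM in ApcKO, 3.19, 3.01, 3.32 and 3.13 FPKM in ApcHET and 2.95, 2.16, 3.32 and 2.27 FPKM in ApcWT. ApcKO replicates 2, 3 and 4 were above every other library and replicate 1 was inside the ApcWT range. Its log2 fold change was 0.52 (SE 0.18, limma adjusted p = 0.0300). Cdc6, which loads the helicase with the complex, had 8.24, 22.8, 23.2 and 6.95 FPKM in ApcKO, 16.4, 14.3, 14.3 and 14.7 FPKM in ApcHET and 14.2, 12.2, 17.1 and 12.1 FPKM in ApcWT. ApcKO replicates 2 and 3 were above and replicates 1 and 4 below every ApcHET and ApcWT library, and the log2 fold change was -0.04 without a call. Cdt1, the other loader, ran over 11.96 to 25.3 FPKM in ApcKO, 20.3 to 24.2 FPKM in ApcHET and 19.7 to 27.6 FPKM in ApcWT and did not pass either (-0.30). The Orc1 call ended without ApcWT replicate 2 (0.46) or 4 (0.47), without ApcKO replicate 2 (0.38) or 3 (0.47), with size factors (0.43), with quantile normalization (0.23), and in 2 other alternatives of 17. The Orc6 call ended without ApcWT replicate 1 (0.56), 3 (0.56) or 4 (0.55) or ApcKO replicate 2 (0.49), with size factors (0.45) and in a fit of the 2 genotypes alone.

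None of the 6 MCM helicase genes passed, and all 6 had the same order of ApcKO libraries in one respect: replicates 2 and 3 were above replicate 4, and replicate 4 above replicate 1. Mcm5 had 24.5, 76.9, 77.3 and 33.3 FPKM in ApcKO, 61.5, 58.8, 51.2 and 50.5 FPKM in ApcHET and 50.4, 58.2, 77.4 and 42.4 FPKM in ApcWT. ApcKO replicates 2 and 3 were above every library except ApcWT replicate 3, and replicates 1 and 4 were below all others. The highest ApcKO library was 3.15 times the lowest, and the log2 fold change against ApcWT was -0.24 (SE 0.33, limma adjusted p = 0.589). Mcm6, the most abundant of the 6, had 40.6, 96.0, 104 and 46.3 FPKM in ApcKO, 105, 106, 94.9 and 103 FPKM in ApcHET and 96.0, 98.5, 129 and 77.1 FPKM in ApcWT. Here ApcKO replicates 2 and 3 lay within the range of the other genotypes and replicates 1 and 4 below it. Its log2 fold change was -0.57 (SE 0.28, limma adjusted p = 0.114), and it was called lower without ApcKO replicate 2 (-0.75) or 3 (-0.79). Mcm2, Mcm3, Mcm4 and Mcm7 had log2 fold changes of -0.06, -0.01, 0.07 and 0.03.

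None of the 6 helicase activation genes passed, but 3 of the GINS genes did not follow the MCM order. Gins4 had 21.5, 36.9, 33.4 and 45.8 FPKM in ApcKO, 28.9, 27.0, 27.3 and 27.0 FPKM in ApcHET and 27.8, 32.4, 27.2 and 24.4 FPKM in ApcWT. ApcKO replicates 2, 3 and 4 were above every other library and replicate 1 below every other one, with replicate 4 highest. The log2 fold change was 0.25 (SE 0.18, limma adjusted p = 0.292), and it was called higher without ApcKO replicate 1 (0.45). Gins1, with 10.8, 25.7, 21.7 and 31.0 FPKM in ApcKO, 16.2, 15.8, 16.0 and 17.6 FPKM in ApcHET and 15.0, 15.2, 17.7 and 13.0 FPKM in ApcWT, also had ApcKO replicate 4 highest and replicate 1 lowest of ApcKO. Gins2 had the smallest spread between ApcKO libraries of the 42, at 19.3, 15.8, 17.6 and 20.7 FPKM, and was the one member with ApcKO replicates 2 and 3 both below replicates 1 and 4. Its deposited locus is 33.8 times as long as the annotated gene. Mcm10, which works with Cdc45 and GINS at origins, had 7.84, 21.5, 23.6 and 9.75 FPKM in ApcKO, 19.6, 20.5, 21.1 and 20.8 FPKM in ApcHET and 19.2, 16.2, 21.6 and 16.1 FPKM in ApcWT. ApcKO replicates 1 and 4 were below all others, and its log2 fold change was -0.34 (SE 0.28, limma adjusted p = 0.358). Cdc45 (-0.16) and Gins3 (-0.09) did not pass.

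All 6 polymerase and primase genes had negative log2 fold changes, and 1 was called lower, as were 17.7% of all features. Pold1, the catalytic subunit of polymerase delta, had 11.9, 31.7, 31.1 and 16.1 FPKM in ApcKO, 40.6, 38.2, 37.0 and 34.1 FPKM in ApcHET and 33.5, 37.2, 46.8 and 31.7 FPKM in ApcWT. Every ApcKO library was below every ApcHET library, and ApcKO replicate 2 overlapped with ApcWT replicate 4, the lowest of ApcWT. It averaged 22.7 ± 10.2 FPKM in ApcKO and 37.3 ± 6.73 FPKM in ApcWT (SD, n = 4 each), with a log2 fold change of -0.79 (SE 0.26, limma adjusted p = 0.0283). The Pold1 call ended without ApcWT replicate 2 (-0.78) or 3 (-0.67), without ApcKO replicate 1 (-0.53) or 4 (-0.67), in a fit of the 2 genotypes alone and with a weight for each library (-0.35). Pola1, the catalytic subunit of polymerase alpha, had 4.14, 15.1, 12.2 and 3.78 FPKM in ApcKO, 14.4, 14.7, 13.2 and 17.0 FPKM in ApcHET and 14.5, 11.9, 15.7 and 9.43 FPKM in ApcWT. ApcKO replicates 1 and 4 were below every other library and replicates 2 and 3 within the ApcWT range. Its log2 fold change was -0.68 (SE 0.35, limma adjusted p = 0.134), and it was called lower without ApcKO replicate 2 (-0.99). A second locus of Pola1 held up to 23.2% of its summed value. Prim1 (-0.47), Prim2 (-0.17), Pola2 (-0.15) and Pole (-0.18) did not pass.

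The clamp loader genes moved in opposite directions. Rfc3, a subunit of replication factor C, which places the clamp on DNA, had 53.8, 63.2, 52.9 and 87.0 FPKM in ApcKO, 37.1, 37.0, 37.4 and 32.7 FPKM in ApcHET and 32.1, 34.9, 35.2 and 37.5 FPKM in ApcWT. Every ApcKO library was above every other library, and ApcKO replicate 4 was the highest. It averaged 64.2 ± 15.9 FPKM in ApcKO and 34.9 ± 2.22 FPKM in ApcWT (SD, n = 4 each), with a log2 fold change of 0.83 (SE 0.14, limma adjusted p = 0.000454). Rfc4, another subunit of the same complex, had 32.1, 63.2, 51.9 and 55.8 FPKM in ApcKO, 73.4, 53.2, 61.6 and 67.8 FPKM in ApcHET and 74.1, 67.9, 75.9 and 65.7 FPKM in ApcWT. Every ApcKO library was below every ApcWT library, and ApcKO replicate 1 was lowest, but ApcKO and ApcHET overlapped. Its log2 fold change was -0.51 (SE 0.18, limma adjusted p = 0.0358). The Rfc4 call ended without ApcWT replicate 1 (-0.49), 2 (-0.53), 3 (-0.48) or 4 (-0.55), without ApcKO replicate 1 (-0.31) or 3 (-0.54), and in 4 other alternatives of 18, whereas Rfc3 was called in all 18 (0.68 to 0.92). Rfc5, another subunit, did not pass (-0.25). Lig1, which seals nicks between Okazaki fragments, had 22.0, 46.6, 53.4 and 32.6 FPKM in ApcKO, 47.9, 45.3, 39.9 and 46.7 FPKM in ApcHET and 42.8, 44.5, 56.0 and 32.6 FPKM in ApcWT. ApcKO replicate 1 alone was below every other library, and the log2 fold change was -0.23 without a call. Fen1, the flap nuclease (-0.21), and Rpa2, a subunit of the single-strand binding protein (-0.16), did not pass.

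Of the 5 nucleotide supply genes 1 fell, where 17.7% of all features were called lower. Tk1, the cytosolic thymidine kinase of the salvage route, had 5.94, 14.0, 13.5 and 11.4 FPKM in ApcKO, 19.3, 17.6, 15.6 and 22.0 FPKM in ApcHET and 18.0, 19.4, 21.4 and 19.0 FPKM in ApcWT. All ApcKO libraries were below all others, with ApcKO replicate 1 lowest. It averaged 11.2 ± 3.67 FPKM in ApcKO and 19.4 ± 1.41 FPKM in ApcWT (SD, n = 4 each), with a log2 fold change of -0.80 (SE 0.21, limma adjusted p = 0.00770) that was called in all 18 alternatives (-0.93 to -0.55). Tyms, the thymidylate synthase of the de novo route, had 24.7, 85.0, 73.9 and 71.4 FPKM in ApcKO, 66.1, 54.2, 54.5 and 62.3 FPKM in ApcHET and 62.6, 58.7, 71.4 and 58.0 FPKM in ApcWT. ApcKO replicate 1 was below every other library while ApcKO replicates 2 and 3 were above them, and the log2 fold change was -0.11 (SE 0.30, limma adjusted p = 0.797). Rrm2, the regulated subunit of ribonucleotide reductase, had 8.10, 30.4, 25.7 and 13.5 FPKM in ApcKO, 24.6, 20.4, 14.5 and 27.2 FPKM in ApcHET and 22.5, 23.7, 27.1 and 20.8 FPKM in ApcWT. ApcKO replicate 2 was highest of the 12 and replicates 1 and 4 lowest, and the log2 fold change was -0.42 (SE 0.33, limma adjusted p = 0.332). Rrm1, the large subunit (-0.22), and Dut, the dUTPase (-0.05), did not pass. The deposited locus of Tk1 is 1.81 times and that of Tyms 2.18 times as long as the annotated gene.

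None of the 3 genes of chromatin assembly and histone mRNA passed. Slbp, which binds the stem-loop of histone mRNA, had 31.5, 54.7, 49.3 and 42.9 FPKM in ApcKO, 59.8, 52.2, 49.5 and 53.0 FPKM in ApcHET and 54.0, 50.8, 51.0 and 46.3 FPKM in ApcWT, from a locus that spans 72.3% of the gene. ApcKO replicates 1 and 4 were below every other library and replicates 2 and 3 among them, with a log2 fold change of -0.20 (SE 0.15, limma adjusted p = 0.287). Chaf1a, the large subunit of chromatin assembly factor 1, had 14.3, 24.8, 28.6 and 9.87 FPKM in ApcKO, 26.0, 24.5, 19.6 and 20.7 FPKM in ApcHET and 21.1, 18.9, 28.9 and 16.1 FPKM in ApcWT. Once more ApcKO replicates 1 and 4 were lowest of the 12, and the log2 fold change was -0.21 (SE 0.28, limma adjusted p = 0.587). A second locus of Chaf1a held up to 23.8% of its summed value. Chaf1b, its partner, had 18.4, 31.7, 31.5 and 35.3 FPKM in ApcKO, 25.2, 25.4, 23.8 and 22.9 FPKM in ApcHET and 23.7, 25.5, 31.6 and 21.1 FPKM in ApcWT, with ApcKO replicate 4 highest and replicate 1 lowest of ApcKO (log2 fold change 0.17).

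The 4 ApcKO libraries differed more from each other than the libraries of either other genotype did. The SD of log2(FPKM + 1) was largest in ApcKO for 42 of 42 members, against 73.2% of all features, and its median over the members was 0.56 in ApcKO, 0.11 in ApcHET and 0.22 in ApcWT (0.33, 0.13 and 0.16 over all features). In 23 of 42 members (54.8%) the ApcKO libraries reached both above the highest and below the lowest ApcWT library, against 22.4% of all features. ApcKO replicate 1 was below every ApcWT library in 38 members (90.5%, against 36.3% of all features) and above in 3 (7.14%, against 5580 of the 12962 features). ApcKO replicate 4 was below in 26 (61.9%, against 34.1%) and above in 10 (23.8%, against 46.8%). ApcKO replicate 2 was below in 4 (9.52%, against 27.7%) and above in 24 (57.1%, against 46.1%), and ApcKO replicate 3 was below in 6 (14.3%, against 28.9%) and above in 20 (47.6%, against 44.5%). The median difference from the ApcWT mean over the members was -0.84, 0.27, 0.29 and -0.35 on the log2 scale in ApcKO replicates 1 to 4, where over all features it was 0.07, 0.14, 0.12 and 0.14.

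**Figure D3:**
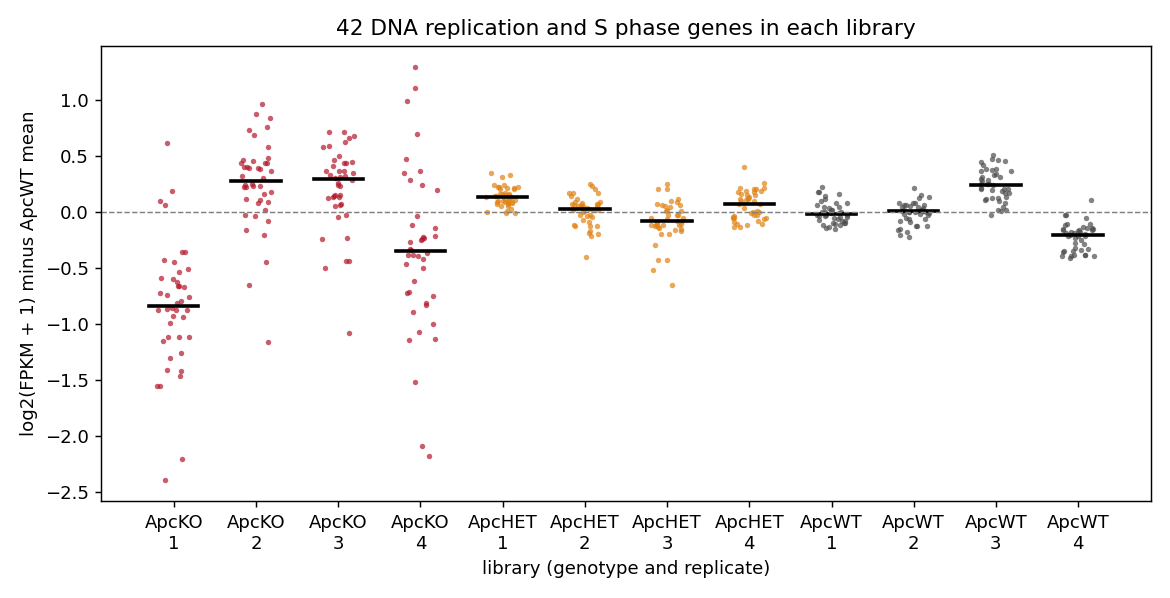
Difference of log2(FPKM + 1) from the ApcWT mean for each of the 42 members (points) in each of 12 libraries, with the median of the members as a bar. ApcKO replicates 1 and 4 centre below 0, at -0.84 and -0.35, and ApcKO replicates 2 and 3 above it, at 0.27 and 0.29.

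**Figure D4:**
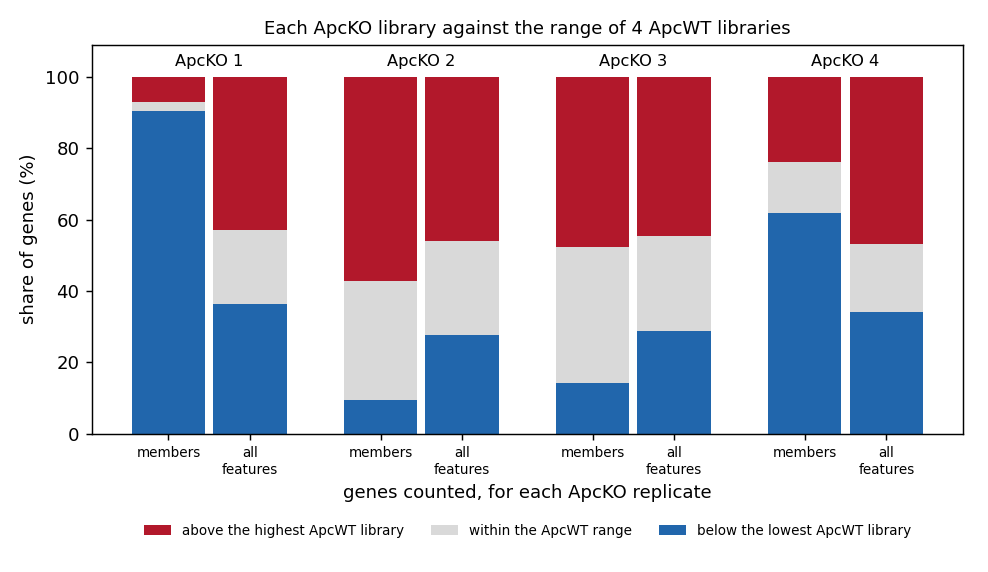
Share of genes, in percent, that lie above, within or below the range of the 4 ApcWT libraries in each ApcKO replicate, for the 42 members and for the 12962 features tested. The members below the range make up 90.5% in replicate 1 and 61.9% in replicate 4, against 9.52% in replicate 2 and 14.3% in replicate 3.

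ApcKO replicates 2 and 3 were both above replicates 1 and 4 in 33 of 42 members (78.6%), against 23.7% of all features. The 9 exceptions were Gins1, Gins2, Gins4, Chaf1b, Dut, Orc6, Prim1, Rfc3 and Rfc4. This split of the ApcKO libraries was not planned before the members' values were seen, so their share describes it and does not test it. In 6 members ApcKO replicate 4 was the highest of the 4, and these were Orc6, Gins1, Gins2, Gins4, Rfc3 and Chaf1b. Replicate 1 was lowest in 36 of 42 (85.7%, against 32.0%). Median log2(FPKM + 1) over the 42 was 3.82, 4.95, 4.81 and 4.48 in ApcKO, 4.73, 4.66, 4.44 and 4.67 in ApcHET and 4.59, 4.64, 4.83 and 4.41 in ApcWT. The other genotypes had an order too, over a narrower range: ApcWT replicate 3 was highest of ApcWT in 34 members and ApcWT replicate 4 lowest in 37, while ApcHET replicate 1 was highest of ApcHET in 22 and ApcHET replicate 3 lowest in 24. Replicates 2 and 3 were both above replicates 1 and 4 in 23 members in ApcWT (54.8%, against 16.3% of all features) and in 0 in ApcHET (against 19.4%). The labels do not pair libraries across genotypes by replicate number, and whether ApcKO and ApcWT share an order was not tested.

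Some other measures had the same order of the ApcKO libraries, and others did not. Top2a, a topoisomerase of S phase and mitosis, had 49.9, 141, 147 and 53.8 FPKM in ApcKO, 113, 101, 107 and 122 FPKM in ApcHET and 108, 83.9, 114 and 79.9 FPKM in ApcWT. Mki67, which marks cycling cells, had 19.4, 41.9, 47.5 and 27.7 FPKM in ApcKO, 64.0, 58.2, 66.2 and 72.6 FPKM in ApcHET and 63.5, 46.9, 60.1 and 44.4 FPKM in ApcWT, so ApcKO replicates 2 and 3 were again the higher ones of ApcKO, replicate 2 below every ApcWT library and replicate 3 within the ApcWT range. The 13 of 14 stem cell markers summed to 1893, 2207, 2331 and 1945 FPKM in ApcKO, against 6230 to 9420 in ApcHET and 6510 to 7460 in ApcWT. That sum had the same order only with Olfm4 in it, which ran from 81.7 to 702 FPKM in ApcKO. In ApcHET and ApcWT most of the sum was Olfm4. Of the 13, only Olfm4 and Ascl2 had ApcKO replicates 2 and 3 both above replicates 1 and 4. Relative to ApcWT, 6 of the 13 were called higher and 2 lower, against 27.9% and 17.7% of all features. Markers of other cell types were summed per library. The 7 of 7 goblet markers summed to 100, 369, 343 and 205 FPKM in ApcKO replicates 1 to 4, against 1270 to 1420 in ApcHET and 1180 to 1840 in ApcWT. The 6 of 7 enteroendocrine markers summed to 29.5, 111, 69.0 and 19.1 FPKM in ApcKO, against 465 to 668 in ApcHET and 263 to 1120 in ApcWT, and the 5 of 10 leukocyte markers to 1.21, 4.41, 2.86 and 1.90 FPKM in ApcKO, against 5.26 to 8.11 in ApcHET and 5.57 to 7.14 in ApcWT. Of these leukocyte markers only Itgam was apart, at 0.197 to 0.605 FPKM in ApcKO and 2.70 to 3.73 FPKM in ApcWT. Ptprc, Cd3e, Cd3g and Cd79a were low and overlapped between ApcKO and ApcWT. The 6 of 7 Paneth markers summed to 6415, 1460, 2516 and 3389 FPKM in ApcKO, against 3730 to 6690 in ApcHET and 5420 to 9280 in ApcWT. By log2 fold change, Paneth markers went both ways relative to ApcWT, with Mmp7 (1.88) and Pla2g2a (4.49) called higher, Defa24 (-2.71) and Itln1 (-2.13) called lower and 2 not passing. The 4 of 8 stroma and endothelium markers summed to 154 to 173 FPKM in ApcKO, 11.8 to 83.7 in ApcHET and 6.81 to 20.9 in ApcWT. Most of the ApcKO sum was Vim, at 115 to 134 FPKM. Other markers of this list differed among the ApcKO libraries, with Pdgfra at 18.1, 34.9, 7.81 and 8.40 FPKM and Cdh5 at 27.6, 19.7, 14.2 and 29.3 FPKM. Enterocyte markers (12 of 12) summed to 338, 553, 417 and 515 FPKM in ApcKO, 1030 to 2590 in ApcHET and 2190 to 5260 in ApcWT, and tuft markers (5 of 6) to 61.4, 61.2, 59.0 and 115 FPKM in ApcKO, 17.5 to 35.0 in ApcHET and 24.3 to 31.0 in ApcWT. Neither sum had ApcKO replicates 2 and 3 both above replicates 1 and 4. Most of the tuft sum of ApcKO was Avil, which averaged 69.0 ± 25.2 FPKM in ApcKO and 8.93 ± 1.11 FPKM in ApcWT (SD, n = 4 each). Of the 4 tuft markers tested, Avil was called higher relative to ApcWT (log2 fold change 2.77) and Dclk1 (-1.38), Trpm5 (-1.81) and Pou2f3 (-0.97) lower. No marker used was at 0 in all 12 libraries, erythrocyte markers were not analysed here, and the part of these in the members' values was not tested.

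Some calls and the members' median depended on the libraries fitted, ApcKO replicate 1 among them. Without ApcKO replicate 1, 8 members were called higher and 3 lower relative to ApcWT. The added ones were Ccne1, Chaf1b, Dut, Gins1 and Gins4, all higher, Pold1 and Rfc4 were no longer called, and the members' median turned to 0.06. All features then had 46.9% called, with a median of 0.135. With a weight for each library 5 were called higher and 3 lower and the median was 0.17, where all features had 49.7% called and a median of 0.12. Without ApcKO replicate 2, 1 member was called higher and 7 lower, with a median of -0.29, against 43.7% of all features called. Without ApcWT replicate 4, 1 was called higher and 4 lower, against 40.5% of all features called. E2f2, E2f8, Tk1 and Rfc3 were called in the same direction in all 18 alternatives.

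Between ApcHET and ApcWT none of the 42 genes was called. Relative to ApcWT, the log2 fold changes of ApcHET ran from -0.15 for Rfc4 to 0.25 for Gins3, with 26 above and 16 below 0 and a median of 0.03 (0.07 over all features). At an unadjusted p under 0.05 limma had 0 of the 42 and 561 of all 12962 features, and after adjustment 0.0% of all features. Gins3, the GINS subunit with the largest value, had 1.96, 5.00, 3.98 and 2.84 FPKM in ApcKO, 4.82, 4.44, 4.26 and 4.28 FPKM in ApcHET and 3.50, 3.53, 4.26 and 3.09 FPKM in ApcWT. Its genotypes just failed to overlap, as ApcHET replicate 3 and ApcWT replicate 3 differed by less than 0.01 FPKM, and it was the only such member (2.38%, against 6.08% of all features). The log2 fold change of Gins3 was 0.25 (SE 0.19, limma adjusted p = 0.987). With size factors 12 members were above and 30 below 0, and without ApcWT replicate 4 the median was -0.07, so no direction held. The median half-width of the 95% interval was the same 0.52 as above, because the fit shares 1 spread per gene among all 12 libraries. The members' spread was widest in ApcKO (median SD 0.56, against 0.11 in ApcHET and 0.22 in ApcWT). The interval is thus not particular to ApcHET and ApcWT, and smaller changes may have gone uncalled.

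Set against ApcHET, ApcKO showed much the same members, but that comparison shares its ApcKO libraries with the one above and is no second test of it. Rfc3 and Orc6 were higher, E2f2, E2f8, Tk1 and Pold1 were lower, and 36 did not pass, which makes 14.3% called against 41.8% of all features (22.8% higher and 18.9% lower). The log2 fold change was -1.54 for E2f2 (limma adjusted p = 0.000398), -1.42 for E2f8 (0.00914), -0.74 for Tk1 (0.0138), -0.81 for Pold1 (0.0275), 0.79 for Rfc3 (0.000768) and 0.49 for Orc6 (0.0497). Those of Orc1 (0.33) and Rfc4 (-0.36) did not pass here. Pola1 (-0.89, limma adjusted p = 0.0597) did not pass either. It was called lower in 6 of 18 alternatives, among them with only the largest locus of a symbol (-0.97). The members' median was -0.21, against 0.04 over all features, and 5 members (11.9%, against 39.5%) did not overlap. The Orc6 call ended in 12 of 18 alternatives, among them without any 1 ApcHET library (0.43 to 0.54) and without ApcKO replicate 2 (0.42) or 4 (0.31). The Pold1 call ended in 7, among them without ApcHET replicate 1 (-0.77), 2 (-0.80) or 3 (-0.81) or ApcKO replicate 1 (-0.55) or 4 (-0.69) and with a weight for each library (-0.42). Without ApcKO replicate 1, 8 members were higher and 3 lower and the median was 0.05, against 43.1% of all features called and a median of 0.06. Without ApcKO replicate 2, 1 was higher and 8 lower, against 40.0% of all features called.

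Other genes of the pathway, from lists that hold none of the 42, were read from the same fit. Of 46 further replication genes, 8 rose and 2 fell in ApcKO relative to ApcWT (median log2 fold change 0.01), and 36 did not pass. Dna2, a nuclease and helicase that trims flaps, had a log2 fold change of -1.15, and Pold2, a subunit of polymerase delta like Pold1, one of -0.77. The genes that rose included the mitochondrial single-strand binding protein gene Ssbp1 (0.66), the polymerase epsilon subunit gene Pole4 (0.60), the polymerase delta subunit gene Pold3 (0.57) and Cdca7 (0.54). The polymerase delta subunits thus went both ways, with Pold1 and Pold2 lower and Pold3 higher. The origin recognition genes Orc2 (0.50), Orc4 (0.38) and Orc5 (0.36) were also called higher, and Orc3 (0.25) did not pass. The calls of Dna2, Pole4, Pold3, Cdca7 and Orc2 held in all 18 alternatives, and those of Orc4 and Orc5 were not followed through them. That of Pold2 ended in 6, including without ApcWT replicate 2 (-0.78), 3 (-0.71) or 4 (-0.80) or ApcKO replicate 4 (-0.70) and with a weight for each library (-0.36), and that of Ssbp1 in 9, including without any 1 ApcWT library (0.64 to 0.69), without ApcKO replicate 2 (0.69) and with a weight for each library (0.43). Relative to ApcHET, 6 of the 46 were higher and 2 lower, with the largest value again that of Dna2 (-1.27).

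Of 20 other E2F, pocket protein and G1/S genes, 3 rose and none fell relative to ApcWT: Cks1b, a small subunit that binds cyclin-dependent kinases (0.73), Fbxw7, which marks cyclin E for destruction (0.52), and E2f5, a repressive E2F (0.45). The Cks1b call ended without ApcWT replicate 1 (0.68) or 4 (0.70) or ApcKO replicate 2 (0.58), 3 (0.68) or 4 (0.63), and in a fit of the 2 genotypes alone. The Fbxw7 call ended without ApcWT replicate 2 (0.47), with size factors (0.41), with quantile normalization (0.39) and with a weight for each genotype (0.52, adjusted p = 0.121). That of E2f5 ended with quantile normalization (0.30). With size factors Cdk2 (-0.34) and Cdc25a (-0.40) were also called, lower. Relative to ApcHET, 2 of the 20 were higher and 2 lower. Together the 66 genes of both lists had 19.7% called against ApcWT and 18.2% against ApcHET, where all features had 45.5% and 41.8%, and relative to ApcWT ApcHET had 0 of 66.

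Of 20 mitosis genes, 2 fell relative to ApcWT (against 17.7% of all features called lower, with a median of -0.23 over the 20) and none rose: Kif23, a motor of cytokinesis (-0.998), and Mki67 (-0.70). The Mki67 call ended without ApcWT replicate 1 (-0.62) or 3 (-0.65) or ApcKO replicate 1 (-0.47) or 4 (-0.63), with a weight for each library (-0.38) and in a fit of the 2 genotypes alone, and that of Kif23 in none of 18 alternatives. Relative to ApcHET 6 of the 20 fell (30.0%, against 18.9% of all features, with a median of -0.41 over the 20), and relative to ApcWT ApcHET had 0 called, with all 20 values above 0 (median 0.21). ApcKO replicates 2 and 3 were both above replicates 1 and 4 in 18 of the 20 mitosis genes (90.0%), in 27 of the 46 further replication genes (58.7%) and in 13 of the 20 regulators (65.0%), against the 78.6% of the 42 members and 23.7% of all features given above.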

How the data were processed

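The values are FPKM per locus, deposited by the authors in 1 table per library, per the file headers. Bowtie, TopHat, Cufflinks, Cuffdiff and build mm10 (GRCm38) appear in the submitters' processing notes; versions, annotation and any use of strand are not given in the sources used here. Loci sharing a symbol were added up. Of 14499 symbols, 295 had loci that were not the same in every table and 122 had a failed estimate, and neither set was used, leaving 14082.

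The 12962 symbols that passed the filter on low values (1 FPKM in 4 libraries) were fitted together in limma 3.58.1 (R 4.3.3), after adding a pseudocount of 1 and taking log2, with genotype as the only factor and a trend in eBayes. P-values are two-sided with Benjamini-Hochberg adjustment over all of them, and a call needs an adjusted p under 0.05. The procedure was tested on simulated data. Those data had the same spread in every genotype, so they do not check calls under the wider spread of ApcKO. FPKM are not counts, so no count model was used and no interval from depth can be given. The labels number the replicates of each genotype without saying that each is a separate animal, so p-values measure the spread between these samples, which may be technical.

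The members and lists were chosen with earlier results of these data known. Values in every library are given for members called in any comparison and, in each role, for the member of highest mean FPKM and that with the largest ApcKO range. Genes of the other lists are named where called relative to ApcWT, up to 6 per list by size of fold change, and relative to ApcHET mostly by counts only. Lgr5, Olfm4, Ascl2, Smoc2, Apc, Top2a and Mki67 are given as markers. Gins1, Gins2, Gins3, Chaf1b and the other origin recognition genes (Orc2, Orc3, Orc4 and Orc5) were singled out after their values were seen. Gene lengths are from GENCODE vM21 on GRCm38. Alternatives changed the pseudocount, the filter, the scaling, the samples fitted, the library weights, the summing of loci and the replicate block, and left out each library in turn.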

Additional observations from a re-analysis of the deposited data

Results flagged for a closer look

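Of 126 groups of 4 libraries examined (42 members in 3 genotypes), 2 had a library far from the other 3 by Dixon's criterion, where chance would give 1 in 20, or about 6.3. Gins4 read 28.9 FPKM in ApcHET replicate 1, above the next library at 27.3, a gap of 0.845 of the group's range. Rfc3 read 32.7 FPKM in ApcHET replicate 4, below the next library at 37.0, a gap of 0.916 of the range. Neither library stood apart by this criterion for any other member.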

How the results depend on the processing

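Of the 18 alternatives, those below moved a count of calls by over 1.5 times; the cause was not tested. For ApcKO against ApcWT, members called higher were 1 with size factors, 1 in a fit of the 2 genotypes only and 5 with arrayWeights per library, against 3, and members called lower were 3 in the fit of the 2 genotypes only and 3 with arrayWeights per library, against 5. Of all features, 44.0% were called with size factors, 38.6% in the fit of the 2 genotypes only and 49.7% with arrayWeights per library, against 45.5%. The other pathway genes called were 8 in the fit of the 2 genotypes only, against 13. For ApcKO against ApcHET, members called higher were 1 with a pseudocount of 0.1, 1 without a filter, 1 with a filter of 5 FPKM, 1 with size factors, 1 in the fit of the 2 genotypes only, 1 with the replicate block and 6 with arrayWeights per library, against 2, and the other pathway genes called were 7 in the fit of the 2 genotypes only, against 12. In these settings 35.6% (the fit of the 2 genotypes only) to 47.7% (arrayWeights per library) of all features were called, against 41.8%.

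Leaving out 1 library gave 1 (without ApcWT replicate 4 or ApcKO replicate 2) to 8 (without ApcKO replicate 1) members higher than ApcWT, 3 (without ApcWT replicate 2 or 3 or ApcKO replicate 1) to 7 (without ApcKO replicate 2) lower, and 8 to 19 other pathway genes. The share of all features called then ran from 40.5% (without ApcWT replicate 2 or 4) to 48.4% (without ApcKO replicate 4). Against ApcHET, leaving out 1 library gave 1 (without any 1 ApcHET library or ApcKO replicate 2 or 4) to 8 (without ApcKO replicate 1) members higher, 3 to 8 (without ApcKO replicate 2) lower, and 5 to 15 other pathway genes, with 35.2% (without ApcHET replicate 4) to 43.4% (without ApcKO replicate 4) of all features called. Tyms ran from -0.21 without ApcKO replicate 2 to 0.37 without ApcKO replicate 1, where it was called higher than in ApcHET (limma adjusted p = 0.0202), against -0.03 uncalled. Against ApcWT, ApcHET had 0 members called in every alternative, and at most 0.0309% of all features (without ApcHET replicate 4).

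The labels state no pairing by replicate number, and the values did not settle whether there was any. Deviations of ApcKO and ApcWT libraries of the same number correlated at 0.18, -0.103, 0.12 and 0.15 across genes, and those of ApcHET and ApcWT at -0.195 to -0.0655. The best match had the same number for 2 of 4 libraries in ApcKO and ApcWT, 0 in ApcHET and ApcWT and 1 in ApcKO and ApcHET. With the replicate block, 3 members were higher and 4 lower than ApcWT, Rfc4 no longer being called (-0.51, limma adjusted p = 0.067), and 1 was higher and 4 lower than ApcHET. Of all features, 43.8% and 39.9% were called in these 2 comparisons.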
